A study of Mus musculus with 20 samples.

Results

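The liver expression of 10 heat shock chaperone genes was followed through HuR knockdown: HSPA8, HSPA1A, HSPA1B, HSPH1, DNAJB1, HSP90AA1, HSP90AB1 and HSPB1, whose products act mainly in the cytosol, and HSPD1 and HSPE1, whose products act in mitochondria. Members were taken by gene symbol, ignoring case, and each of the 10 symbols had 1 row in both the human table (60607 genes) and the mouse table (55335 genes). Livers came from 20 mice. Humanized mice were TK-NOG animals, immune-deficient NOG mice in which an albumin promoter drives a viral thymidine kinase in the liver, so that ganciclovir (25 mg/kg at 8 to 9 weeks of age) removes host hepatocytes before primary human hepatocytes are transplanted; they were used 8 to 12 weeks after transplantation if serum human albumin was above 0.5 mg/ml. Of these, 4 received an adenovirus with a shRNA against human HuR (Humanized HuR KD) and 4 a LacZ control virus (Humanized LacZ). WT mice were male C57BL/6 bought at 8 weeks of age. Of these, 6 received a virus with another shRNA, against mouse HuR (WT HuR KD), and 6 the LacZ virus (WT LacZ). Every mouse, controls included, thus carried an adenovirus at 2000000000 pfu, and livers were collected 7 days later, following 4 h without food. The humanized table lists human genes only. Whether reads from host cells of the same livers were assigned to human genes was not tested.

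Heat shock chaperones bind unfolded or partly folded proteins and use ATP, or in the case of small heat shock proteins no ATP, to keep them from aggregating. HSPA8 is the constitutive cytosolic HSP70, HSPA1A and HSPA1B are its nearly identical stress-inducible relatives, DNAJB1 is the J-domain cochaperone that stimulates HSP70, and HSPH1 is an HSP110 that acts as nucleotide exchange factor for HSP70. HSP90AB1 is the constitutive and HSP90AA1 the more inducible cytosolic HSP90. HSPB1 (HSP25 in mouse, HSP27 in human) is a small heat shock protein. HSPD1 (HSP60) and HSPE1 (HSP10) form the folding chamber of the mitochondrial matrix and its lid. The inducible genes of the family are driven by heat shock factor 1, which binds inverted repeats of the unit nGAAn, called heat shock elements. HuR, encoded by ELAVL1, is an RNA-binding protein that recognises U-rich and AU-rich stretches, many of them in 3′ UTRs, and often stabilises the mRNA it binds.

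Promoters of 4 mouse members are shown because they hold matches to the heat shock element, through which inducible chaperone genes are known to be driven. RefSeq promoter windows (GRCm38.p6, from 250 bases before to 50 bases after a gene's start) were matched for 7 of the 10 mouse genes, with 10 windows in all. The capitals mark matches to a heat shock element of 2 units, spelled GAANNTTC or TTCNNGAA, each of which reads the same on both strands. Matches may overlap.

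Hspe1, chr1:55087898-55088197, plus strand: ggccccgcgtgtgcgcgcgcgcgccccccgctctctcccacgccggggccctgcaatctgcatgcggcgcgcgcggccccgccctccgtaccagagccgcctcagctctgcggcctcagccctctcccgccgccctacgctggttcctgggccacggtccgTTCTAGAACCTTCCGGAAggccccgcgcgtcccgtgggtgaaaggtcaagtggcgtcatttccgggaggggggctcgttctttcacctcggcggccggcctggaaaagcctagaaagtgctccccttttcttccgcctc
Hspa1b, chr17:34959189-34959488, minus strand: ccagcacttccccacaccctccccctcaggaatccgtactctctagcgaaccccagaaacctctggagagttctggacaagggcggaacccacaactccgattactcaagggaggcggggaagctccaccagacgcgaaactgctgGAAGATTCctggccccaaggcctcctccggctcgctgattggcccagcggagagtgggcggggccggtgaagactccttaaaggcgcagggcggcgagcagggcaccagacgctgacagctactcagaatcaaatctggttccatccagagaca
Hspb1, chr5:135887669-135887968, plus strand: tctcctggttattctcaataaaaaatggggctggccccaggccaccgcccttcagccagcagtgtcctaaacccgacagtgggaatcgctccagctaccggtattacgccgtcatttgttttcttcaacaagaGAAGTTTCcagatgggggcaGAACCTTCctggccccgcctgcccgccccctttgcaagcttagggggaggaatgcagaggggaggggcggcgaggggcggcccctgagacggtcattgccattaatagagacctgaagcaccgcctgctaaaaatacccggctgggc
Hsph1, chr5:149636287-149636586, minus strand: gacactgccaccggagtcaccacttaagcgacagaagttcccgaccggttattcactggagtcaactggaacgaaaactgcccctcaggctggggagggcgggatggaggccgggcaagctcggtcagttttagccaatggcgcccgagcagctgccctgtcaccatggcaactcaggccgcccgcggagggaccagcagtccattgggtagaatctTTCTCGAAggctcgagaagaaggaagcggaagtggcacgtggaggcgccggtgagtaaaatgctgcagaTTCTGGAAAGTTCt

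Hspd1 and Hspe1 are neighbours transcribed away from each other (their annotated ends share 112 bases in GENCODE M21), and the second of the Hspd1 windows, chr1:55087883-55088182 on the minus strand, covers nearly the same bases as the Hspe1 window. Counted from 0 at the annotated start, the 3 overlapping matches of the Hspe1 window began at −89, −84 and −79. The match of Hspa1b lay at −104, those of Hspb1 at −117 and −97, and those of Hsph1 at −33, 36 and 41. Hspa1a and Hspa1b, 9951 bases apart on chromosome 17, had windows that differed at 4 of 300 bases. A 2-unit match was found in 7 of the 10 member windows, against 15.1% of all 32851 mouse windows. These windows belong to 6 of the 7 genes (Hspa1a, Hspa1b, Hspb1, Hspd1, Hspe1, Hsph1). Matches of 3 units in a row were found in 4 of the 10 windows, of 3 genes (Hspd1, Hspe1, Hsph1), against 0.603% of all windows. The matches of Hspd1 and Hspe1 are the same bases read from either strand. Both Hsph1 windows, the one shown and chr5:149636266-149636565, overlap and hold the same matches. Counts of windows therefore count some sites more than once. Neither window of Dnajb1 held these letters. A match is a description of the letters, not of binding.

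The 3′ UTRs of the mouse members were searched for the AU-rich pentamer ATTTA, since HuR binds such stretches. In the GENCODE M21 transcript of each gene with the longest coding sequence, 6 of 10 members held at least 1 copy: Hspa8, Hspa1b, Hsp90aa1, Hsph1, Hspb1 and Hspd1. Among 10914 mouse genes tested for expression with a 3′ UTR of at least 50 bases, 66.4% held one. The longer form TATTTAT was present in 27.2% of these genes and in 1 member, Hsph1, at base 77 of a 3′ UTR of 963 bases.

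Hsph1, 3′ UTR, chr5, capitals mark TATTTAT: cagactgagtcTATTTATattttcttttt

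Reads per library, recovered from the steps in which TPM move, ranged from 2670469 to 20302454 in humanized and from 1423985 to 44668272 in WT livers. HuR KD replicate 4 and LacZ replicate 2 were the deepest humanized libraries, at 20302454 and 19891555 reads, with mitochondrial rRNA at 49.1% of TPM in both, against 27.2 to 36.0% in the other 6. In every WT library mitochondrial rRNA was at 0% of TPM. Protein-coding genes held 75.6 to 77.6% of TPM in WT and 28.9 to 37.8% in humanized libraries, so TPM levels of the sets are not on the same scale. LacZ replicate 2 (1423985 reads) and HuR KD replicate 6 (12960373 reads) were the shallowest WT libraries of their groups. These 4 libraries matter for several members, and values without them are given below. ELAVL1 was lower with HuR knockdown in every liver of both sets, at 61.0% of the control mean in humanized livers (adjusted p = 0.214, limma) and 51.7% in WT livers (adjusted p = 0.00105). Hepatocyte markers were abundant in both tables, and in the humanized table macrophage, T or NK cell, neutrophil, B cell and endothelial markers summed to at most 1.24 TPM per liver for each list.

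In control livers the constitutive chaperones were the most abundant. In WT LacZ livers the mean level was 687 ± 50.0 TPM (SD, n = 6) for Hsp90ab1 and 606 ± 78.1 TPM for Hspa8, whose ranges overlapped. Hspd1 followed at 371 ± 43.6 TPM, apart from both its neighbours in the order, and then Hspe1 at 165 ± 13.2 and Hsp90aa1 at 126 ± 29.7 TPM, which overlapped. Hspb1 (31.3 ± 7.92 TPM), Dnajb1 (22.1 ± 6.70 TPM), Hspa1b (19.4 ± 12.6 TPM) and Hsph1 (15.7 ± 5.57 TPM) overlapped in turn. Hspa1a was last at 0.980 ± 0.782 TPM. In humanized LacZ livers HSP90AB1 (226 ± 55.3 TPM, SD, n = 4), HSPA8 (222 ± 91.9 TPM) and HSPD1 (133 ± 22.8 TPM) overlapped in turn. HSP90AA1 (48.6 ± 16.7 TPM), HSPB1 (47.9 ± 15.4 TPM), DNAJB1 (24.0 ± 5.77 TPM) and HSPE1 (20.8 ± 2.29 TPM) formed the next overlapping series, and HSPH1 stood below them at 4.31 ± 1.28 TPM. HSPA1A and HSPA1B were listed at 0 TPM in all 8 humanized livers.

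**Figure D1:**
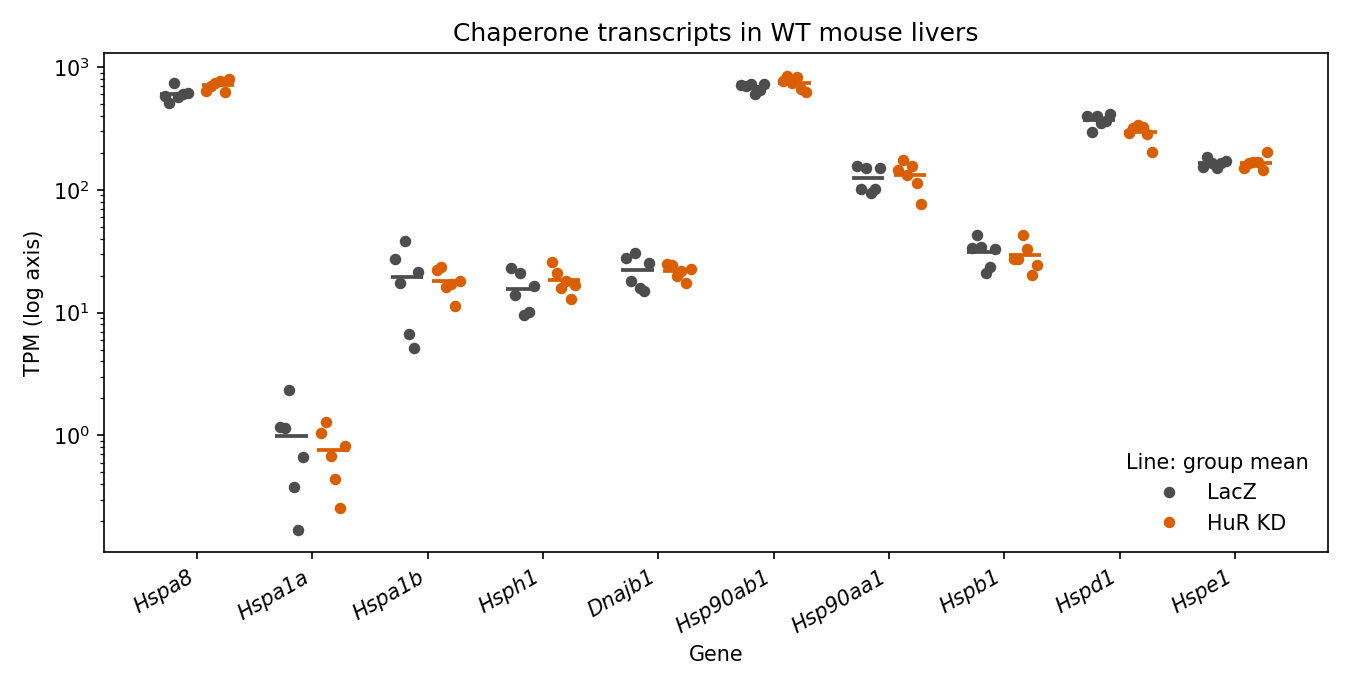
TPM of the 10 chaperone genes in each WT liver, on a log axis, for LacZ (grey) and HuR KD (orange), with lines at group means of 6 livers. The groups overlap for each of the 10 genes, and LacZ livers span 5.13 to 38.5 TPM for Hspa1b.

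WT HuR KD was compared with WT LacZ to ask which chaperone mRNAs changed 7 days after HuR knockdown in mouse liver. Hspa8 was higher and Hspd1 lower at an unadjusted p under 0.05, the threshold of the study, and the remaining 7 of the 9 members that reached a mean of 1 TPM were not called. Over all 15090 genes tested, 16% were called at that threshold, 9.09% as higher and 6.94% as lower, against 22.2% of the members (2 of 9, 1 in each direction). After Benjamini-Hochberg adjustment 0 of 9 members passed in limma, with the same result by voom on the recovered reads, and 0.888% of all genes did. For 0 of 9 members the groups did not overlap, against 2.49% of all genes. The median log2 fold change was 0.07 over the members and 0.03 over all genes, on the log2(TPM + 1) scale used for all fold changes.

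Hspa8, on chr9:40800984-40810087 (mm10, plus strand, 9 exons; exon counts are those of each gene's first-numbered transcript), had a lowest, median and highest level of 625.3, 719 and 793 TPM in HuR KD livers and of 514, 594 and 748 TPM in LacZ livers. The HuR KD livers were shifted up within an overlapping range, with 2 of 6 above all controls. The highest liver, HuR KD replicate 6, and the lowest, LacZ replicate 2, were the shallowest libraries of their groups. The mean was 710 ± 68.4 TPM (SD, n = 6) against 606 ± 78.1 TPM. On the log2 scale the difference was 0.23, with a standard error of 0.09 and a 95% interval of 0.03 to 0.43. It was called by limma at an unadjusted p = 0.0276 (adjusted p = 0.245; two-sided exact permutation p = 0.0303). The call was lost with median-of-ratios factors (log2 fold change 0.22) and without any single one of HuR KD replicates 3, 4 or 6 or LacZ replicates 1, 2 or 4 (log2 fold changes of 0.18 to 0.22), and without both shallowest libraries the log2 fold change was 0.15 and not called. At 50 bases, 74.8% of the windows of its transcript also occurred in transcripts of other genes, most of them in the pseudogene Gm15459, so the split of its reads is uncertain.

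The inducible HSP70 genes differed by less than the spread between livers. Hspa1b (chr17:34956436-34959238, minus strand, 1 exon) was at 11.3, 17.5 and 23.6 TPM (lowest, median, highest) in HuR KD livers and at 5.13, 19.5 and 38.5 TPM in LacZ livers. Both the lowest and the highest livers were controls. Its log2 fold change was 0.15 with a 95% interval of −0.73 to 1.04 (adjusted p = 0.896, limma). Hspa1a (chr17:34969190-34972156) was at 0.756 ± 0.382 TPM (SD, n = 6) with knockdown and 0.980 ± 0.782 TPM in controls, under the filter of a mean of 1 TPM, and its highest value of 2.35 TPM was in LacZ replicate 3, the liver that was also highest for Hspa1b. The transcripts share sequence, with 62.3% of Hspa1b windows of 50 bases found in Hspa1a, and summing both gave a log2 difference of 0.14 (two-sided exact permutation p = 0.766).

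The HSP70 cochaperones in the list did not pass the test either. Hsph1 (chr5:149614287-149636376, minus strand, 17 exons) was at 12.99, 17.4 and 25.7 TPM in HuR KD livers and 9.47, 15.3 and 23.01 TPM in LacZ livers, a log2 fold change of 0.25 (95% interval −0.22 to 0.73, adjusted p = 0.625, limma). Dnajb1 (chr8:83608193-83612653, plus strand, 3 exons) was at 17.3, 22.3 and 24.6 TPM with knockdown and 14.9, 21.6 and 30.8 TPM in controls. The knockdown livers lay within the range of the controls for Dnajb1, with a log2 fold change of 0.02 (95% interval −0.35 to 0.40).

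The HSP90 pair did not pass the test. Hsp90ab1 (chr17:45567775-45573271, minus strand, 11 exons) ranged from 624 to 850 TPM (median 755) with knockdown and from 605 to 729 TPM (median 708) in controls. Of the 6 HuR KD livers, 4 lay above all controls, and the log2 fold change was 0.11 (95% interval −0.07 to 0.30, adjusted p = 0.577, limma). Hsp90aa1 (chr12:110690605-110702728, minus strand, 11 exons) ranged from 76.0 to 174 TPM (median 138) with knockdown and from 93.5 to 155 TPM (median 126) in controls, a log2 fold change of 0.07 (95% interval −0.37 to 0.50). Its lowest value was in HuR KD replicate 6. Hspb1 (chr5:135887919-135889563, plus strand, 3 exons) was at 20.2, 27.3 and 42.8 TPM with knockdown and 21.0, 33.2 and 42.8 TPM in controls, a log2 fold change of −0.10 (95% interval −0.51 to 0.32) that turned to 0.03 by voom and 0.04 without both shallowest libraries.

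Of the mitochondrial partners in WT livers, Hspd1 was called and Hspe1 was not, and their ratio did not pass its own test. Hspd1 (chr1:55077835-55088243, minus strand, 12 exons) was at 202, 306 and 337 TPM (lowest, median, highest) in HuR KD livers and at 297, 383 and 411 TPM in LacZ livers. The HuR KD livers were shifted down, 3 of 6 lay below all controls, and the lowest control, replicate 2, was the shallowest library with 462 reads on the gene. The mean was 295 ± 49.2 TPM (SD, n = 6) against 371 ± 43.6 TPM, 79.3% of control, with a log2 fold change of −0.34 (standard error 0.12, 95% interval −0.61 to −0.08). It was called by limma at an unadjusted p = 0.0162 (adjusted p = 0.196; two-sided exact permutation p = 0.0173). The log2 fold change was −0.24 without HuR KD replicate 6, the lowest liver, and −0.30 without both shallowest libraries, a fit in which the adjusted p was 0.0300 and Hspd1 was the 1 member called after adjustment. Over all genes 762 of 15082 passed after adjustment in that fit, against 134 of 15090 in the main fit. In every alternative run Hspd1 remained lower at an unadjusted p under 0.05. Hspe1 (chr1:55088132-55091307, plus strand, 4 exons), which encodes the lid of the same chamber, was at 145, 166 and 204 TPM with knockdown and at 149, 165 and 185 TPM in controls, a log2 fold change of 0.01 (95% interval −0.18 to 0.19). Its sign changed with the scaling of the libraries. The ratio of Hspd1 to Hspe1 TPM had a median of 1.95 with knockdown and 2.36 in controls, a log2 difference of −0.35 (two-sided exact permutation p = 0.0866, adjusted over 6 ratios 0.229).

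Some members share sequence with processed copies, and whether reads were divided between them was not tested. Windows of 50 bases also found in transcripts of other genes made up 60.4% of Hspb1, 58.5% of Hsp90aa1 and 44.8% of Hspe1. The share was 4.49% for Hsp90ab1, 0.441% for Dnajb1 and 0% for Hsph1. At 50 bases, 44.8% of the windows of the Hspd1 transcript occurred in other genes, most of them in Hspd1-ps3, a pseudogene listed at 55.4 ± 11.1 TPM (SD, n = 6) with knockdown and 73.3 ± 5.10 TPM in controls. All 6 HuR KD livers lay below all controls for Hspd1-ps3 (log2 fold change −0.42, adjusted p = 0.145, limma; exact permutation p = 0.00216, the smallest that 6 against 6 allow). Summed with its 5 copies, Hspd1 gave a log2 difference of −0.36 (exact permutation p = 0.0108).

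Markers of some other cell types, and ER chaperone genes, were lower in the same comparison. Of 10 Kupffer cell or macrophage markers, 6 were lower in WT HuR KD livers at an unadjusted p under 0.05 and 0 higher (0 after adjustment in limma), with summed levels of 482 to 818 TPM against 684 to 938 TPM, and no marker of that list was at 0. Of 5 T or NK cell markers tested, 2 were lower (0 after adjustment), whereas of 5 hepatocyte markers tested 0 were called, with sums of 67769 to 78639 TPM against 62416 to 77172 TPM. Of 6 endothelial markers 1 was higher, of 6 stellate cell markers 1 was lower, and 0 neutrophil, B cell or cholangiocyte markers were called. The 12 called of 14 ER chaperone genes were all lower (median log2 fold change −0.39 over the 14, 0 after adjustment in limma, and 8 called without both shallowest libraries), among them Pdia4 (−0.61, adjusted p = 0.0712) and Calr (−0.38, adjusted p = 0.132). In bulk liver RNA, fewer cells of a type and less RNA per cell cannot be told apart, and the part of these lists in the values of Hspd1 and Hspa8 was not tested.

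Members differed in how much they varied from liver to liver. Within groups, the SD of log2(TPM + 1) in WT livers was 0.79 for Hspa1b, higher than in 98.7% of the 1000 genes nearest to it in level, and Hsph1, Hspb1, Hsp90aa1 and Dnajb1 lay at the 91.7th to 94.2nd percentile. Hspd1 lay at 70.3%, and Hspa8, Hspe1 and Hsp90ab1 between 35.8% and 43.3%. The order was another in humanized livers, where HSPA8 lay highest at 90.8%, HSPB1 at 84.0%, HSP90AA1 at 83.1%, HSPH1 at 75.4%, HSP90AB1 at 71.7% and DNAJB1 at 69.8%, and HSPD1 and HSPE1 at 22.7% and 19.7%. LacZ replicates 4 and 5 had the lowest Hspa1b (6.69 and 5.13 TPM), Dnajb1 (15.9 and 14.9 TPM) and Hsph1 (9.47 and 10.1 TPM), and LacZ replicates 1, 3 and 6 the highest of all 3 genes among controls. Over the 6 LacZ livers the Pearson r of Hspa1b was 0.942 with Dnajb1 and 0.948 with Hsph1 (exact permutation p adjusted over 16 relations 0.0222 and 0.0444). It was 0.891 with Hsp90ab1 and 0.840 with Hsp90aa1 (adjusted 0.0933 and 0.104), and 0.214 to 0.772 with Hspa8, Hspb1, Hspd1 and Hspe1. Without the 2 livers farthest from the median of Hspa1b the first 4 were 0.907, 0.820, 0.574 and 0.690. As LacZ replicates 4 and 5 stood apart in Hspa1b, these pooled values are description only. Among the 6 HuR KD livers Hspa1b and Dnajb1 had a Pearson r of 0.973 (exact permutation p = 0.00278, adjusted over 16 relations 0.0222) and a Spearman rho of 0.943 (exact p = 0.0167, adjusted 0.133), with an r of 0.925 without the 2 livers farthest from the median of Hspa1b. Hspa1b and Hsph1 had an r of 0.907 (exact p = 0.0208, adjusted 0.0833) and a rho of 0.886 (exact p = 0.0333, adjusted 0.133), with an r of 0.958 without those 2 livers. After adjustment only the r of Dnajb1 passed in these livers, and no rho did. With Hsp90ab1 the r was 0.56 (exact p = 0.251, adjusted 0.503), with Hsp90aa1 0.39 (exact p = 0.429, adjusted 0.700), with Hspb1 0.25 (exact p = 0.633, adjusted 0.778, rho 0.03) and with Hspe1 0.23 (exact p = 0.651, adjusted 0.778). With Hspa8 it was 0.17 and with Hspd1 0.05 (exact p = 0.746 and 0.906).

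**Figure D2:**
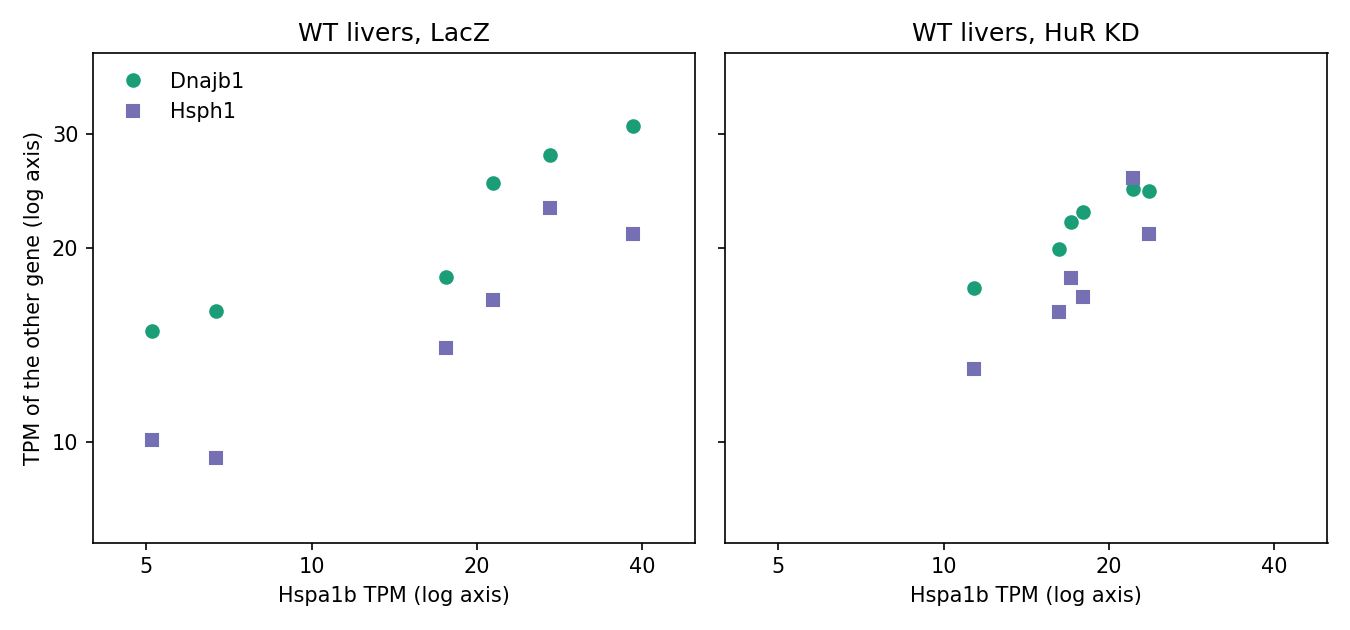
TPM of Dnajb1 (circles) and Hsph1 (squares) against TPM of Hspa1b in the 6 LacZ livers (left) and the 6 HuR KD livers (right), both axes on a log scale. Dnajb1 ranks the LacZ livers as Hspa1b does, from 14.9 to 30.8 TPM, and the HuR KD livers likewise, from 17.3 to 24.6 TPM, save that the highest pair changes places.

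By the fixed rule on likeness, the non-members whose deviations from group means followed the mean of the tested members most closely in WT livers were Gm22146, a lncRNA (r = 0.936 over 12 livers), Ccdc117 (r = 0.914) and Hspa4l (r = 0.910), an HSP110 relative of Hsph1. In humanized livers they were ZNF146 (r = 0.999 over 8 livers), ATP9A (r = 0.997) and SEC24C (r = 0.995). These are the highest of 15081 mouse and 12730 human genes and share libraries and depth with the members.

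**Figure D3:**
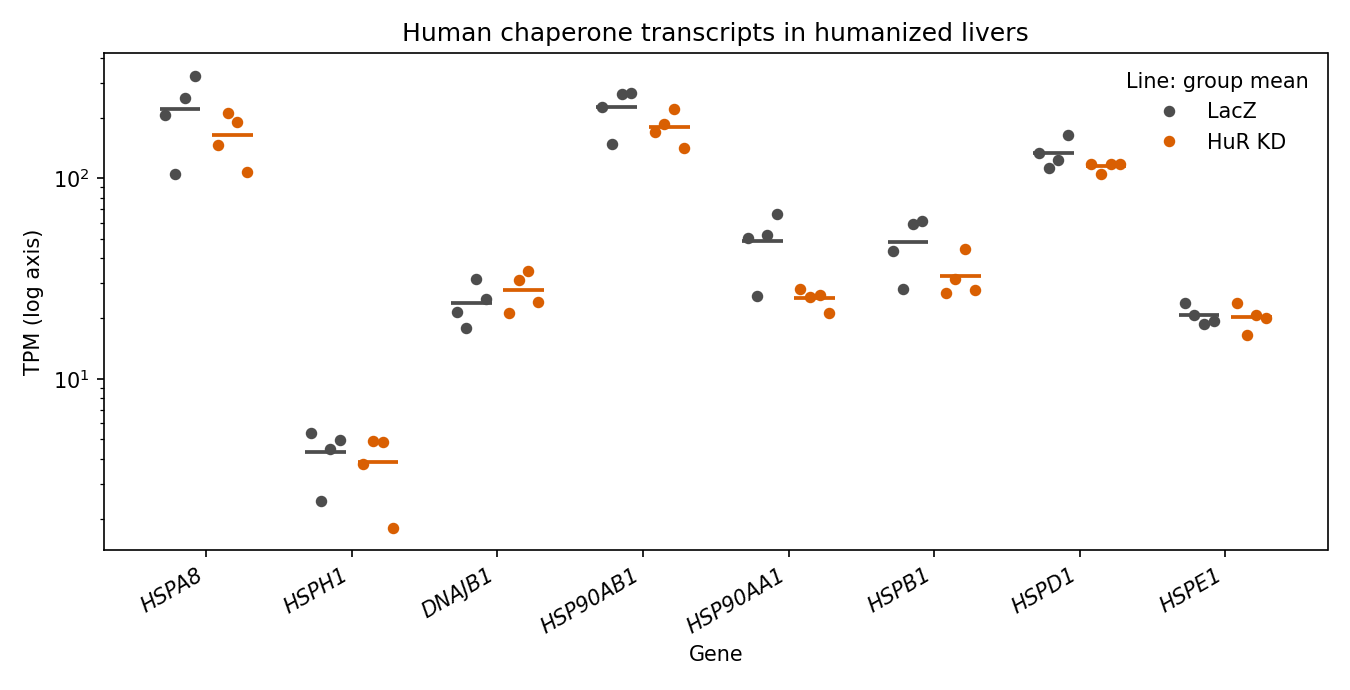
TPM of the 8 human chaperone genes above 0 in each humanized liver, on a log axis, for LacZ (grey) and HuR KD (orange), with lines at group means of 4 livers. HuR KD livers lie at 21.3 to 28.0 TPM for HSP90AA1, with 1 of 4 LacZ livers among them.

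The same comparison was made for the human transcripts of humanized livers. HSP90AA1 was lower with knockdown, and the other 7 of 8 members tested were not called at an unadjusted p under 0.05. The background in this table was 11.5% of 12738 genes, 3.6% higher and 7.87% lower, against 1 of 8 members (12.5%). Median-of-ratios scaling moved the share of called genes that were higher from 31.3% to 47.5%. After adjustment 0 of 8 members passed in limma and by voom, and 0.212% of all genes did. For 0 of 8 members the groups did not overlap, against 7.16% of all genes. The log2 fold change was negative for 7 of 8 members (6 of 8 with median-of-ratios, quantile or protein-coding scaling, HSPE1 turning), with a median of −0.25 over the members and −0.05 over all genes.

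HSP90AA1 (an HSP90 that holds client kinases and hormone receptors) was at 28.0, 25.6, 26.2 and 21.3 TPM in HuR KD replicates 1 to 4 and at 50.2, 25.9, 52.0 and 66.1 TPM in LacZ replicates 1 to 4. The knockdown livers were tightly grouped, and LacZ replicate 2, the deep control library, lay among them. The mean was 25.3 ± 2.83 TPM (SD, n = 4) against 48.6 ± 16.7 TPM, 52.1% of control, with a log2 fold change of −0.85 (standard error 0.26, 95% interval −1.43 to −0.26). It was called by limma at an unadjusted p = 0.00930 (adjusted p = 0.251), and the two-sided exact permutation p was 0.0857, where 4 against 4 cannot go below 0.0286. Without LacZ replicate 2 the log2 fold change was −1.12 (adjusted p = 0.0207), and without both deepest libraries −1.04 (adjusted p = 0.0314). Over all genes 172 passed after adjustment in each of these fits, against 27 with all 8 livers. The log2 fold change of HSP90AA1 was negative at an unadjusted p under 0.05 in every alternative run.

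HSP90AB1, the constitutive partner, was at 171, 186, 221 and 142 TPM in HuR KD replicates 1 to 4 and at 227, 148, 265 and 265 TPM in LacZ replicates 1 to 4. The deepest library of each group was the lowest of its group. The log2 fold change was −0.31 (95% interval −0.80 to 0.18, adjusted p = 0.652, limma). The ratio of HSP90AB1 to HSP90AA1 TPM, which no scaling of a library changes, was 6.11 to 8.42 with knockdown and 4.01 to 5.71 in controls. These ranges did not overlap, a log2 difference of 0.56 (two-sided exact permutation p = 0.0286, the smallest 4 against 4 allow; adjusted p = 0.171 over the 6 ratios computed). In WT livers the same ratio was 4.88 to 8.20 with knockdown and 4.64 to 6.89 in controls (exact permutation p = 0.777).

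HSPA8 was at 147, 211, 191 and 108 TPM in HuR KD replicates 1 to 4 and at 208, 105, 250.98 and 325 TPM in LacZ replicates 1 to 4. Again the deepest library of each group was its lowest, and the log2 fold change was −0.37 with an interval of −1.15 to 0.40 (adjusted p = 0.740, limma). DNAJB1 was at 21.3, 30.9, 34.4 and 24.3 TPM with knockdown and 21.6, 17.96, 31.5 and 24.9 TPM in controls, the 1 member with a positive log2 fold change (0.20, 95% interval −0.27 to 0.68). HSPH1 was at 3.74, 4.91, 4.86 and 1.81 TPM with knockdown and 5.33, 2.46, 4.48 and 4.97 TPM in controls, with the deepest libraries lowest once more and a log2 fold change of −0.16 that turned to 0.08 without HuR KD replicate 4.

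HSPB1, the small heat shock protein, was at 26.8, 31.6, 44.5 and 27.8 TPM in HuR KD livers and at 43.6, 27.9, 58.9 and 61.1 TPM in LacZ livers. Its log2 fold change was −0.50 (95% interval −1.10 to 0.09, adjusted p = 0.515, limma). Of the mitochondrial pair, HSPD1 was at 118, 105, 118 and 118 TPM with knockdown and 133, 112, 123 and 165 TPM in controls, a log2 fold change of −0.20 (95% interval −0.53 to 0.13). HSPE1 was at 23.9, 16.5, 20.7 and 19.98 TPM with knockdown and 24.0, 20.8, 18.8 and 19.5 TPM in controls, a log2 fold change of −0.04 (95% interval −0.37 to 0.29). The table lists 26 named copies of HSPE1, which held 30.3% of the summed TPM, and the log2 difference of the sum was −0.32 (two-sided exact permutation p = 0.343). Whether reads were divided between the gene and its copies was not tested.

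Calls in humanized livers depended on the 2 deepest libraries. Without LacZ replicate 2, 4 of 8 members were lower at an unadjusted p under 0.05: HSP90AA1, HSPB1 (−0.74, adjusted p = 0.146), HSP90AB1 (−0.50, adjusted p = 0.211) and HSPA8 (−0.69, adjusted p = 0.247). Without both deepest libraries 4 of 8 were called as well, at log2 fold changes of −1.04, −0.67, −0.39 and −0.51 for the same genes. With these 2 libraries as a block 3 were called (HSP90AA1, HSPB1, HSP90AB1). Over all genes the share called at that threshold rose as well, from 11.5% with all 8 livers to 15.3% without LacZ replicate 2. It was 15.7% without both deepest libraries and 15.1% with the block. In both libraries the 10 members summed to 463 and 460 TPM, against 540 to 932 TPM in the other 6. As a share of protein-coding TPM the sums were 0.154% and 0.157%, against 0.171 to 0.246% in the others. Hepatocyte markers summed to 39589 and 42609 TPM, against 55939 to 89673 TPM. The part of depth and rRNA share in the members' values was not tested beyond these fits.

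**Figure D4:**
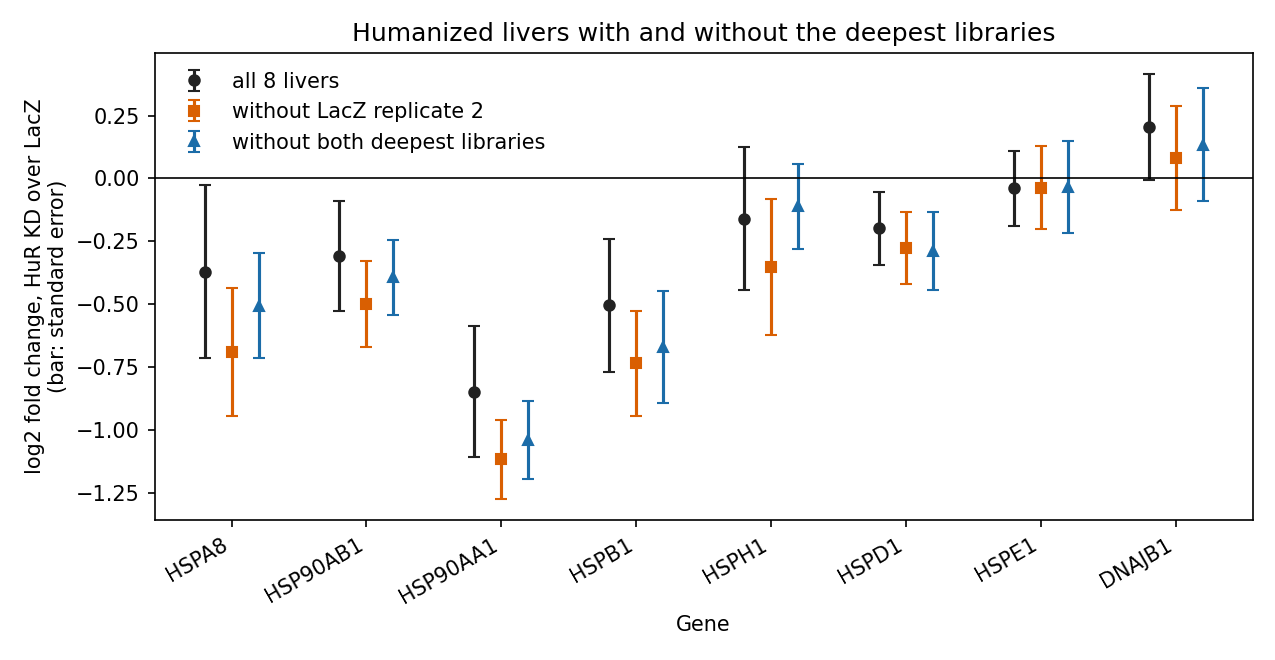
Log2 fold change, HuR KD over LacZ, of the 8 human members tested (log2(TPM + 1) scale, bars are standard errors) with all 8 livers, without LacZ replicate 2 and without both deepest libraries. HSP90AA1 moves from −0.85 to −1.12 and −1.04, and HSPE1 stays between −0.03 and −0.04.

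HSPA1A and HSPA1B had no usable value in humanized livers. Both genes lie in the MHC class III region, and of 34 genes of that region 33 had a row in the human table, 18 of which were at 0 in every liver and 1 of which reached a mean of 1 TPM. Among all 19964 protein-coding human genes 19.3% were at 0 in every liver. C2 and CFB, complement genes that hepatocytes express, reached at most 0.313 and 0.216 TPM, and CSNK2B, a kinase subunit used by every cell, was at 0. In WT livers C2 was at 29.8 to 39.6 TPM and Csnk2b at 59.1 to 82.3 TPM. The zeros of HSPA1A and HSPA1B are therefore given as listed and not read as a level.

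Whether the knockdown effect of a member differed between humanized and WT livers was tested by the interaction term of a joint limma fit over 8206 gene pairs with the same symbol. HSP90AA1 was the 1 of 8 member pairs at an unadjusted p under 0.05, with a difference of −0.91 in log2 fold change (standard error 0.33, unadjusted p = 0.0106, adjusted p = 0.112, limma), and 0 of 8 passed after adjustment. Over all pairs 19.7% were called at the unadjusted threshold and 5.01% after adjustment. HSP90AB1 differed by −0.42 (adjusted p = 0.276, limma) and HSPA8 by −0.60 (adjusted p = 0.296), neither past the unadjusted threshold, and the other 5 differed by −0.41 to 0.18. Without humanized LacZ replicate 2, HSP90AA1 (−1.18), HSPA8 (−0.92) and HSP90AB1 (−0.61) passed after adjustment (adjusted p = 0.0116, 0.0163 and 0.0291, limma), and so they did without both deepest libraries (adjusted p = 0.0198, 0.0221 and 0.0457). Without WT HuR KD replicate 6, HSP90AA1 passed alone (adjusted p = 0.0341). Adjusted calls over all pairs rose as well, from 411 of 8206 in the main fit. They numbered 835 of 8214 without humanized LacZ replicate 2, 967 of 8217 without both deepest libraries and 542 of 8212 without WT HuR KD replicate 6. The shRNA sequence, the mouse strain, the species of the hepatocytes and the share of mitochondrial rRNA differ between the sets and cannot be told apart.

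**Figure D5:**
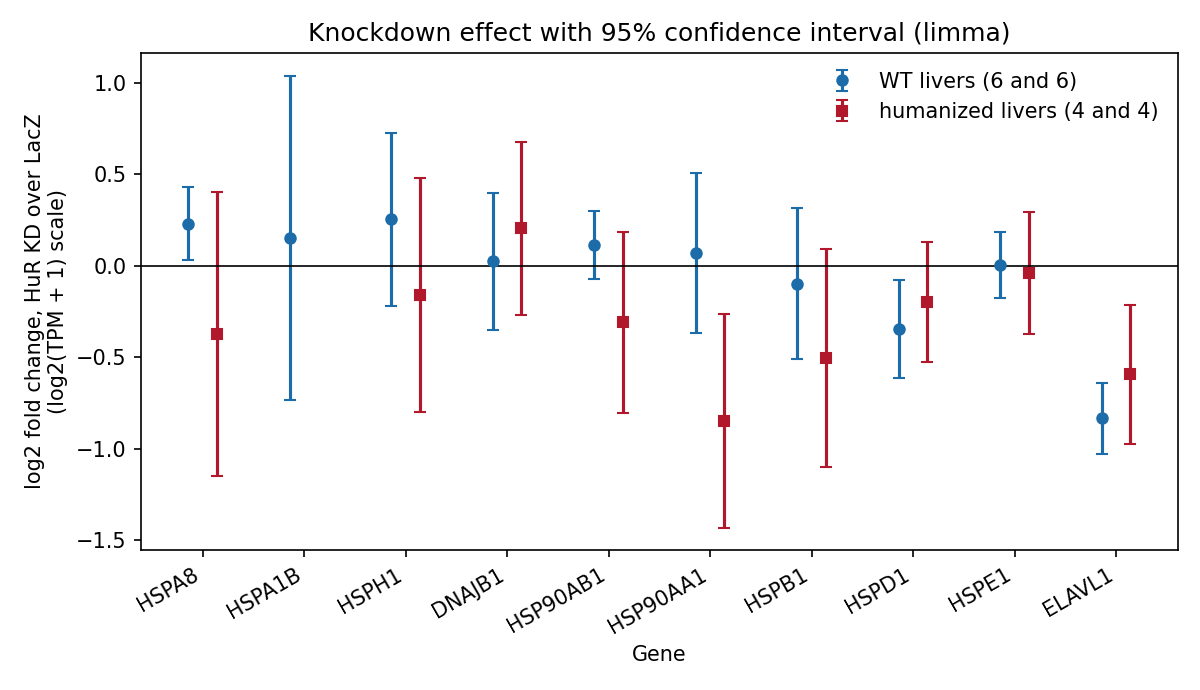
Log2 fold change, HuR KD over LacZ, with its 95% confidence interval from limma for each member tested and for ELAVL1 in WT livers (blue circles) and humanized livers (red squares), on the log2(TPM + 1) scale. Intervals that leave out 0 belong to HSPA8 and HSPD1 in WT livers, HSP90AA1 in humanized livers, and ELAVL1 in both.

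The wider chaperone network was read from 9 lists of 76 gene symbols. In WT livers 68 of these genes were tested, of which 10 were higher and 2 lower at an unadjusted p under 0.05 (17.6% together, against 16% of all genes) and 3 were higher after adjustment. These 3 were Cct5 (161 ± 10.3 against 125 ± 7.57 TPM, SD, n = 6; log2 fold change 0.36, adjusted p = 0.0212, limma), Cct7 (39.6 ± 2.38 against 31.7 ± 2.21 TPM; 0.31, adjusted p = 0.0391) and Hspbp1 (20.7 ± 2.14 against 15.6 ± 1.47 TPM; 0.38, adjusted p = 0.0464). Cct5 and Cct7 are subunits of TRiC, the cytosolic chaperonin that folds actin and tubulin, and all 6 HuR KD livers lay above all controls for both. Of the 8 TRiC genes 4 were called, all higher, and the median log2 fold change was 0.20, positive for all 8 genes under every scaling run. Hspbp1 is a nucleotide exchange factor of HSP70. The adjusted call was kept in 15, 10 and 8 of 22 alternatives for Cct5, Cct7 and Hspbp1, and the unadjusted call in all 22 for each.

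Other called genes of these lists did not pass after adjustment in WT livers. Hspa9, the mitochondrial HSP70, was higher (455 ± 34.3 against 394 ± 22.6 TPM, log2 fold change 0.20, adjusted p = 0.148, limma). Stub1, a ubiquitin ligase that works with HSP70 and HSP90, was higher at 0.21 and Ppp5c, an HSP90-bound phosphatase, at 0.27. The J-domain genes Dnajc7 (0.17) and Dnajc9 (0.37) were higher, while Hspa2 (−0.52) and the prefoldin subunit Vbp1 (−0.58) were lower, with an adjusted p between 0.169 and 0.267 for these 6 genes. Of 4 heat shock factor genes 0 were called, nor were any of the 4 other small heat shock protein genes tested.

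In humanized livers 62 genes of the 9 lists were tested, of which 2 were higher and 3 lower at an unadjusted p under 0.05 (8.06%, against 11.5% of all genes) and 0 after adjustment in the main fit. PTGES3 (p23), a cochaperone that binds HSP90 in its ATP state, was lower at 21.3 ± 2.58 against 41.9 ± 8.95 TPM (SD, n = 4), a log2 fold change of −0.93 with groups that did not overlap (adjusted p = 0.0835, limma). DNAJA1, a J-domain partner of HSP70, was higher at 94.98 ± 22.0 against 55.6 ± 16.5 TPM, a log2 fold change of 0.78 (adjusted p = 0.274). An adjusted call was reached in 8 of 19 alternatives for PTGES3 and in 1 of 19 for DNAJA1, and the unadjusted call in all 19 for each. The others were CLPP, a mitochondrial protease (0.45), CDC37L1 (−0.46) and HSPB8, a small heat shock protein at 0.151 ± 0.117 against 2.28 ± 2.62 TPM (−1.22), with an adjusted p of 0.375 to 0.401. Of 8 TRiC genes 0 were called, with a median of −0.15. Of 13 ER chaperone genes tested, CRELD2 was higher (0.35) and DNAJC3 lower (−0.63), neither after adjustment. Among markers of other cells, 2 of 4 cholangiocyte and 1 of 2 stellate cell markers were lower in these livers, with sums of 5.26 to 29.4 against 11.5 to 44.4 TPM and of 2.73 to 4.80 against 5.26 to 7.26 TPM, and their part in the members' values was not tested.

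Genes named for the lists set beside the network were read by the same rule. In WT livers 19 of 20 interferon response genes were lower (12 of 20 without both shallowest libraries), 1 of them after adjustment (Oas3, −0.998, adjusted p = 0.0101, limma), with Irf7 at −0.82. After adjustment 8 were lower with median-of-ratios factors, 8 with quantile normalization and 7 by voom. In humanized livers 2 of 18 were lower (DDX58 at −0.93 and IFIH1 at −0.52). Of the immediate early genes, 1 of 10 was called in WT livers (Myc, 0.41, adjusted p = 0.276) and 0 of 9 in humanized livers.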

How the data were processed

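Total RNA of 20 livers was sequenced. The authors trimmed the reads, used HISAT2 for alignment (with human and mouse genomes indexed together for humanized livers), counted them per gene with featureCounts and deposited TPM per gene and library. Per the labels the builds were mm10 and GRCh38. How gene lengths entered the TPM is not given in the sources used here.

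Here log2(TPM + 1) was compared within each table with limma 3.58.1 (R 4.3.3), eBayes with trend, over genes averaging 1 TPM or more, and called at an unadjusted p under 0.05 with the Benjamini-Hochberg adjusted p beside it. Single values were compared by two-sided exact permutation (70 and 924 groupings). The interaction came from a joint limma fit. Whole reads were recovered from the TPM steps (100% of genes with at least 4 values), and the depth they give limits low TPM. The per-set limma step was tested on simulated data. Alternatives were another pseudocount, other filters, median-of-ratios and quantile scaling, eBayes without trend, a replicate block, each liver left out, and summed copies. Voom, protein-coding scaling, the depth block and leaving out library pairs were chosen after seeing the data.

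The members and lists were chosen with earlier results of these data known. Named genes were the members, ELAVL1, the 2 genes of each list and species with the smallest p under 0.05, and 3 genes per table most like the members' mean. Hspd1-ps3 and the genes of the MHC class III region were named after their values were seen. Same-numbered livers had correlations of deviations from −0.25 to 0.21, so numbers do not pair livers. Each library is labelled as its own sample, and p-values rest on the spread between these livers, which limma moderates over genes. For humanized mice the paper reports a small number of hepatocyte donors. The fits did not take donor into account, so humanized livers may share a donor. Mouse sequences are from RefSeq (GRCm38.p6) and GENCODE M21. Human sequences were not used here. Python 3.11.15, numpy 2.4.6, pandas 2.3.3, scipy 1.17.1 and matplotlib 3.10.9 were used.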

Additional observations from a re-analysis of the deposited data

Results flagged for a closer look

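In 2 of 36 groups of member values, 1 liver stood far from the others of its group by Dixon's test, which chance alone flags in about 1 of 20 groups. HuR KD replicate 6 of the WT livers was the lowest for Hspd1 at 202 TPM, with the other 5 at 287 to 337 TPM. The same library, the shallowest of its group, was also the lowest for Hsp90aa1 and the highest for Hspe1 and Hspa8. For Hsp90ab1 it was the lowest of its group, at 624 TPM. In humanized livers HuR KD replicate 2 was the lowest for HSPD1 at 105 TPM, with the other 3 between 118.1 and 118.5 TPM.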

How the results depend on the processing

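The number of members called at an unadjusted p was 2 in WT livers and 1 in humanized livers, and that after adjustment 0 in both. In WT livers 1 member was called with median-of-ratios factors and 1 without both shallowest libraries (1 after adjustment), and 1 to 2 (0 after adjustment) when each liver was left out. There the unadjusted share over all genes was 16% in the main fit, 16.3% with median-of-ratios factors and 23.2% without both shallowest libraries. In humanized livers 4 were called without both deepest libraries (1 after adjustment), 3 with these libraries as a block, and 1 to 4 (0 to 1 after adjustment) when each liver was left out, the highest without LacZ replicate 2. The unadjusted share over all genes was 15.7% without both deepest libraries, 15.1% with the block and 15.3% without LacZ replicate 2, against 11.5% in the main fit. Member pairs with a different effect between the sets numbered 1 (0 after adjustment), 3 without both deepest libraries (3 after adjustment), 2 without both shallowest libraries, and 1 to 4 (0 to 3 after adjustment) over the livers left out. Over all pairs the unadjusted share was 19.7% in the main fit and 26% without both deepest libraries. It was 24.8% without humanized LacZ replicate 2 and 21.7% without both shallowest libraries. The other settings left the member counts within 1.5 times. Over all genes the adjusted calls went from 134 in WT livers to 17 with the replicate block and 762 without both shallowest libraries as the extremes, from 27 in humanized livers to 0 and 172, and from 411 pairs in the joint fit to 283 and 967. With a minimum mean of 5 TPM the unadjusted calls went from 1461 to 931 genes in humanized livers and from 1619 to 1035 pairs, with fewer tested.

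Values near 0 changed sign. In WT livers Hspe1 was −0.00978 with median-of-ratios factors, −0.0226 with quantile normalization and −0.0210 without both shallowest libraries. Dnajb1 was −0.000431 by voom and −0.0338 without both shallowest libraries, and Hspb1 was 0.0326 by voom and 0.0406 without both shallowest libraries. Over the livers left out Dnajb1 ranged from −0.0726 to 0.128, Hspe1 from −0.0544 to 0.0425, Hsp90aa1 from −0.0190 to 0.218 and Hspa1b from −0.136 to 0.402. In humanized livers HSPE1 was 0.0339 with median-of-ratios factors, 0.0275 with quantile normalization and 0.0442 with TPM rescaled to protein-coding genes. Over the livers left out HSPE1 ranged from −0.120 to 0.0508 and HSPH1 from −0.352 to 0.0820. The difference between sets for HSPE1 was 0.0437, 0.0498 and 0.0287 under the same 3 scalings and ranged from −0.125 to 0.0458 over the livers left out. The cause was not tested.

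With the replicate number as a block 2 members were called in WT livers, 1 in humanized livers and 1 pair in the joint fit, as without it. Same-numbered livers deviated with correlations from −0.142 to 0.206 in WT and from −0.249 to 0.137 in humanized livers, so the numbers were not taken as pairs, and in neither set did every liver correlate best with its own number. Depth limits low members most, since Hspa1b had 29 reads and Dnajb1 34 in the shallowest WT control library.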
